A study of Mus musculus with 6 samples.

Results

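Expression of 10 genes that carry signals from tumor necrosis factor (TNF) receptors to NF-kB was examined in Tregs from the BM of CML and naive mice. They comprised the TRAF adaptors Traf1, Traf2 and Traf3, the ubiquitin ligase gene Birc3, the NF-kB subunit genes Nfkb1, Nfkb2, Rel and Relb, and the feedback inhibitor genes Nfkbia and Tnfaip3. They were picked by name for their place in the pathway and were matched by exact symbol, with no threshold on their values. Each was found among the 36930 features of the deposited tables, and all 10 were among the 13923 features with a mean of at least 1 RPKM (reads scaled by the length of the feature and by the reads of the library) that were tested.

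RNA of FACS-purified BM Tregs from 3 CML and 3 naive mice was sequenced, with 1 library per mouse. All 6 mice were Foxp3-DTR-GFP animals 8 weeks old, in which the Foxp3 locus drives the diphtheria toxin receptor and GFP. CML mice had received LSKs (lineage-negative Sca-1+ c-Kit+ BM cells) transduced with BCR-ABL1-GFP, as syngeneic recipients without irradiation, and were analyzed at day 15 after induction, whereas naive mice carried no leukemia. Tregs and leukemia cells thus both carried GFP in CML mice, the host kept its own hematopoiesis, and the model rests on retroviral expression of the oncogene.

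The 6 libraries differed in depth. Reads estimated from the deposited values ranged from 5187987 to 9751911 in naive mice and were 7613827, 829181 and 2286190 in CML replicates 1, 2 and 3. Features with LOC names took 36.7% of the summed RPKM in CML replicate 2 and 2.17% to 10.9% in the other libraries. The 8 Treg markers, which include Foxp3, Il2ra and Ctla4, summed to 2171 to 2496 RPKM in naive and 2233 to 3029 RPKM in CML libraries, and none was at 0 in all libraries. The 6 CD8 T and NK cell markers summed to 27.0 to 60.6 RPKM in naive and 60.2 to 81.2 RPKM in CML libraries, and all 6 had the higher mean in CML. The sums of the B and plasma cell markers were 486 to 632 RPKM in naive and 358 to 502 RPKM in CML libraries. The 12 neutrophil and promyelocyte markers reached sums of 207 and 224 RPKM in CML replicates 2 and 3, whereas their sum was 9.98 RPKM in CML replicate 1 and between 30.4 and 53.9 RPKM in the naive mice. Of these, Retnlg, Ly6g and Mmp8 were at 0 in every library. The 9 erythroid markers summed to 132, 41.8 and 250 RPKM in CML replicates 1, 2 and 3 and to 5.93 to 30.9 RPKM in naive mice. The part of depth and of these transcripts in the values below was not tested. In bulk RNA, fewer cells of a type and less RNA per cell cannot be told apart.

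NF-kB is a family of dimeric transcription factors held inactive in the cytoplasm. In the canonical branch, kinases of the IKK complex mark the inhibitor IkBα, encoded by Nfkbia, for degradation, and dimers that contain p50, RelA or c-Rel enter the nucleus. In the noncanonical branch, TRAF2, TRAF3 and the cIAP ligases keep the kinase NIK, encoded by Map3k14, at low levels until costimulatory TNF receptors engage them. NIK then accumulates and drives the processing of p100, the product of Nfkb2, to p52, the partner of RelB. Birc3 encodes a cIAP, and Tnfaip3 encodes A20, an enzyme that edits ubiquitin chains and dampens the canonical branch. In Tregs, c-Rel and RelA are known for their part in Foxp3 expression and Treg identity. Several of these genes are themselves textbook NF-kB targets, among them Nfkbia, Tnfaip3, Nfkb2, Relb, Traf1 and Birc3.

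The promoter letters of the members were read first, because they show which of the genes carry a potential NF-kB site next to their start. Windows from 250 bases before to 50 bases after the annotated start (RefSeq, GRCm38.p6) were held for 8 of the 10 members, and not for Nfkb1 and Relb. The kappaB consensus was searched on both strands, and overlapping matches were counted separately. At least 1 match lay in the windows of 5 members, Tnfaip3, Rel, Nfkbia, Traf3 and Nfkb2, and none lay in those of Traf1, Traf2 and Birc3. Of 27025 genes with windows, 9.55% held a match. The stretches are given 5′ to 3′ on the strand of the gene, with the bases matched in capitals.
Nfkb2, chr19:46304683-46304750, plus strand: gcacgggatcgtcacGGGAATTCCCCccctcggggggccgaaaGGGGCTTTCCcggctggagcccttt
Rel, chr11:23771036-23771076, minus strand: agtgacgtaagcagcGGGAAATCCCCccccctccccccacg
Nfkbia, chr12:55492652-55492691, minus strand: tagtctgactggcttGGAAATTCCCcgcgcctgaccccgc
Tnfaip3, chr10:19015398-19015437, minus strand: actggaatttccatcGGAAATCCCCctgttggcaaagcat
Traf3, chr12:111166345-111166384, plus strand: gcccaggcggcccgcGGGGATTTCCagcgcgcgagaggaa

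The Nfkb2 stretch held 3 matches, which began 39, 38 and 11 bases before the start, and the Rel stretch held 2 overlapping matches that began 92 and 91 bases before it. In Nfkbia, Tnfaip3 and Traf3 the matches shown began 29, 12 and 10 bases before the start. Tnfaip3 held a further match 125 bases before its start, and 2 other annotated starts of Nfkb2 also had matches in their windows. A match describes the letters in a window and not binding, and no match says only that these letters were absent from it. Members with a match were found among those with a CML mean above and below the naive mean (Nfkb2 and Traf3 against Rel and Tnfaip3).

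All 10 members were well expressed in BM Tregs. In naive mice their means ran from 245 ± 52.1 RPKM (SD, n = 3) for Tnfaip3 to 32.9 ± 4.28 RPKM for Traf2. The order of level per length in naive Tregs was Tnfaip3, Nfkbia, Nfkb1, Traf1, Nfkb2, Traf3, Birc3, Relb, Rel and Traf2. From Nfkbia down to Traf3, the range of each gene lay clear of the next. Tnfaip3 and Nfkbia could not be ordered, and the ranges of Traf3 and Birc3, Birc3 and Relb, Relb and Rel, and Rel and Traf2 overlapped as well. In CML Tregs the order was the same from Nfkb1 to Relb, with Nfkbia and Tnfaip3 exchanged at the top and Traf2 and Rel exchanged at the bottom, both within overlapping ranges. In CML Tregs the ranges of neighbors lay clear of each other between Tnfaip3 and Nfkb1, Nfkb2 and Traf3, and Traf3 and Birc3, and overlapped elsewhere. Within each of the 6 libraries Nfkb1 held rank 3, Traf1 rank 4 and Nfkb2 rank 5 among the members. Summed over the 10 members, the level was 1029 ± 81.1 RPKM in naive and 1028 ± 102 RPKM in CML Tregs (SD, n = 3 each).

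**Figure D1:**
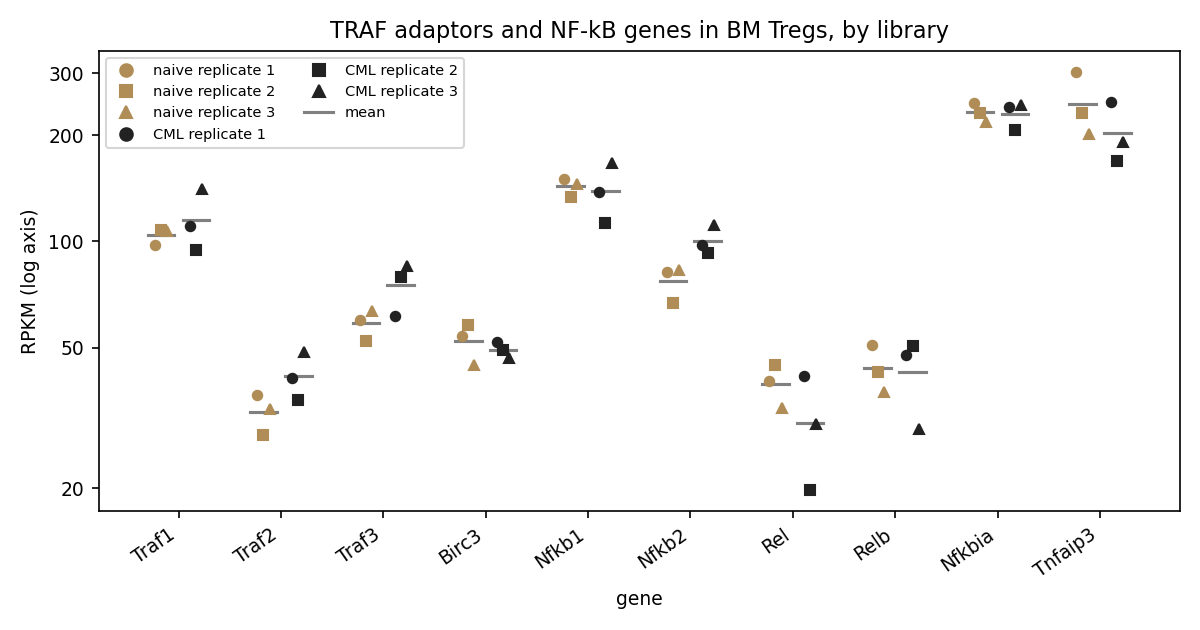
RPKM of the 10 members (log axis) in each of the 6 libraries, with naive mice in tan, CML mice in black, a symbol for each replicate number and a grey line at each group mean. Groups overlap for every gene but Nfkb2, whose CML libraries (92.9 to 111 RPKM) all lie above the naive libraries (67.1 to 83.1 RPKM), and CML replicate 2 is the lowest point for Traf1, Nfkb1, Rel, Nfkbia and Tnfaip3.

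None of the 10 members passed an adjusted p of 0.05 with a 1.5-fold change in limma, and none passed an unadjusted p of 0.05, the smallest being 0.0585 for Nfkb2. Over all tested features, 24 of 13923 (0.172%) were called at the adjusted threshold, and 2.61% were higher and 5.94% lower in CML at an unadjusted p of 0.05 with a 1.5-fold change. The log2 fold changes (CML minus naive, on log2(RPKM + 1)) of the members lay between -0.41 and 0.37 with a median of -0.04, beside a median of -0.18 over all tested features. Changes of no more than 0.41 in size were found in 54.5% of all tested features and in 73.5% of the 3287 features whose mean was at least that of the lowest member, Rel at 35.1 RPKM. In 1 member, Nfkb2, every CML library lay above every naive library, and in 0 members every CML library lay below. The shares over all tested features were 4.84% above and 12.2% below. With 3 mice per group, a missed threshold does not show that a gene was level, and the interval of each difference is therefore given below.

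**Figure D2:**
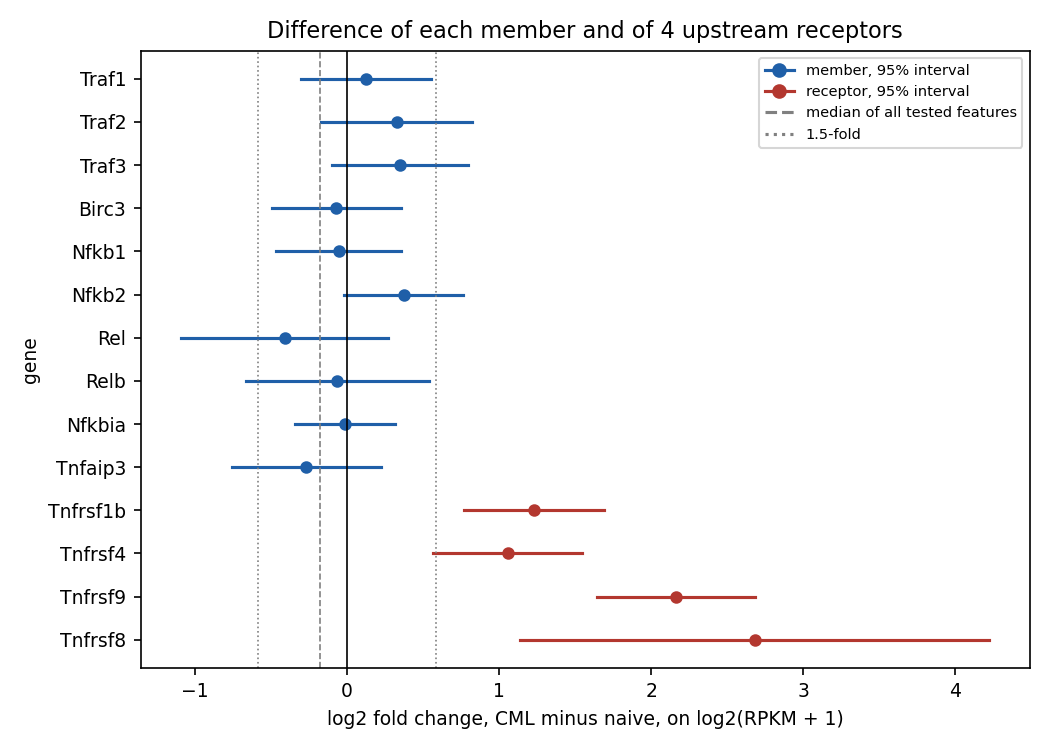
Log2 fold change between CML and naive Tregs with its 95% interval for the 10 members (blue) and 4 receptors upstream of them (red), with a dashed line at the median of all tested features and dotted lines at 1.5-fold. All 10 member intervals cross 0, while the 4 receptor intervals lie above 0.

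The TRAF adaptors link the cytoplasmic tails of TNF receptors to ubiquitin ligases and kinases. Traf1, an adaptor induced on lymphocyte activation that modifies TRAF2 complexes, had 98.0, 108 and 107 RPKM in naive mice and 111, 94.6 and 141 RPKM in CML mice. CML replicates 1 and 3 lay above all naive libraries and CML replicate 2 below them, so the groups overlapped. The log2 fold change was 0.13 (SE 0.18, 95% interval -0.30 to 0.55, adjusted p = 0.833). Its sign turned when CML replicate 3 was left out. It also turned when the 75th percentiles of the libraries, each taken over its own features with reads, were equalized. The sign stayed positive with equal 75th percentiles of tested features (0.20) and after quantile normalization (0.17). It was also positive with equal sums after removing LOC, small RNA and T cell receptor features (0.26).

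Traf2, the adaptor that brings cIAP ligases to the receptors, had 36.8, 28.4 and 33.6 RPKM in naive and 41.0, 35.5 and 48.5 RPKM in CML Tregs. CML replicates 1 and 3 exceeded every naive library, and CML replicate 2 lay below naive replicate 1 and above the other naive libraries. The log2 fold change of 0.33 (SE 0.21, 95% interval -0.17 to 0.82) did not pass the test (adjusted p = 0.646).

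Traf3, which holds NIK in the complex that degrades it, had 59.8, 52.3 and 63.7 RPKM in naive and 61.3, 79.5 and 85.2 RPKM in CML Tregs. Here CML replicates 2 and 3 were the high libraries and CML replicate 1 lay inside the naive range. The log2 fold change was 0.35 (SE 0.19, 95% interval -0.10 to 0.79, adjusted p = 0.595). Set alone against the naive mice, CML replicate 1 gave a log2 fold change of 0.07, from 1 library and as an alternative chosen after seeing the data. Neutrophil markers were also high in CML replicates 2 and 3 and low in replicate 1. CML replicates 2 and 3 were shallower than replicate 1 as well, with larger shares of features with LOC names. The part of markers, depth and LOC features in the Traf3 values was not tested.

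The 3 TRAF genes together had 196 ± 8.31 RPKM in naive and 232 ± 36.5 RPKM in CML Tregs (SD, n = 3 each), 1.19 times the naive mean. Every CML library (213, 209.7 and 275 RPKM in replicates 1, 2 and 3) lay above the highest naive library, replicate 3 at 205 RPKM. This separation was narrow and depended on the scaling. Equalizing the 75th percentiles multiplies naive replicate 3 by 1.188 and CML replicate 2 by 0.945, after which the groups overlap. These percentiles were taken over features with reads, of which naive replicate 3 had 18094 and CML replicate 2 had 12589. Equal 75th percentiles of tested features (factors 1.014 and 1.196 in the same order) left the groups apart. Equal sums (0.979 and 1.231) left them apart as well. The TRAF sum was formed after the values were seen and was not tested.

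Birc3, the cIAP gene among the members, had 54.1, 57.9 and 44.6 RPKM in naive and 52.0, 49.3 and 46.9 RPKM in CML Tregs. All 3 CML libraries lay inside the naive range, and the log2 fold change was -0.07 (SE 0.18, 95% interval -0.50 to 0.35, adjusted p = 0.912). Its closest relative Birc2, which encodes the other cIAP, had means of 74.0 and 82.6 RPKM in naive and CML Tregs and a log2 fold change of 0.14 (SE 0.18, adjusted p = 0.796). The 2 genes lie side by side and are similar in sequence, so reads could have been divided between them in counting, and their separate values are less certain for that reason.

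The subunit genes were described next. Nfkb1 encodes p105, the precursor of p50, and was the most abundant of the 4 per length. Its values were 150, 134 and 146 RPKM in naive and 138, 113 and 167 RPKM in CML Tregs. CML replicate 2 was the lowest and CML replicate 3 the highest of all libraries, with a log2 fold change of -0.06 (SE 0.18, 95% interval -0.47 to 0.36, adjusted p = 0.933).

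Nfkb2, which encodes the p100 precursor of the noncanonical branch, had 82.2, 67.1 and 83.1 RPKM in naive and 97.4, 92.9 and 111 RPKM in CML Tregs. Its groups did not overlap, with means of 77.5 ± 8.96 and 100.5 ± 9.57 RPKM (SD, n = 3 each), a ratio of 1.30. The log2 fold change was 0.37 (SE 0.17, 95% interval -0.02 to 0.76), which did not pass the test (adjusted p = 0.531). Relative to the median of all tested features the difference was 0.55, and it lay between 0.43 and 0.57 under the 5 scalings of the libraries. A factor on a whole library moves a gene and the median almost equally. Of these scalings only quantile normalization (0.43) is no such factor, so the narrow range does not show stability. The sign of the log2 fold change was positive under all 18 alternative settings, some of which cannot change it. The groups overlapped when the 75th percentiles over features with reads were equalized, where the log2 fold change was 0.17. They stayed apart after quantile normalization (0.42), with equal 75th percentiles of tested features (0.44) and with equal sums (0.51). The stretch before its start is the first of those printed above.

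Rel, which encodes c-Rel, had 40.1, 44.8 and 33.8 RPKM in naive and 41.7, 19.8 and 30.4 RPKM in CML Tregs. CML replicate 2, the shallowest library, had the lowest value, and CML replicate 1 lay inside the naive range. The log2 fold change of -0.41 had the widest interval of the members (SE 0.29, 95% interval -1.09 to 0.27, adjusted p = 0.677). Set alone against the naive mice, CML replicate 1 gave 0.08, and without it the difference was -0.66 and the groups did not overlap.

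Relb, which encodes the partner of p52, had 51.0, 42.6 and 37.4 RPKM in naive and 47.8, 50.5 and 29.4 RPKM in CML Tregs. CML replicates 1 and 2 lay within the naive range and CML replicate 3 below it, with a log2 fold change of -0.06 (SE 0.26, 95% interval -0.66 to 0.54, adjusted p = 0.948). The only subunit gene outside the 10, Rela, had means of 63.1 and 49.5 RPKM in naive and CML Tregs, and its log2 fold change of -0.38 (SE 0.23, adjusted p = 0.625) did not pass the test either.

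The feedback inhibitor genes had the highest levels. Nfkbia, which encodes the inhibitor that NF-kB resynthesizes to end its own signal, had 246, 232 and 218 RPKM in naive and 239.8, 207 and 244 RPKM in CML Tregs. The groups overlapped, the log2 fold change was -0.01 (SE 0.14, adjusted p = 0.980), and the 95% interval from -0.34 to 0.31, or 0.789-fold to 1.24-fold, was the narrowest among the members. Tnfaip3 had 303, 231 and 201 RPKM in naive and 249, 169 and 191 RPKM in CML Tregs. CML replicates 2 and 3 fell below all naive libraries and CML replicate 1 lay inside the naive range, with a log2 fold change of -0.27 (SE 0.21, 95% interval -0.76 to 0.22, adjusted p = 0.696). CML replicate 1 alone gave 0.04. Nfkbie, which encodes a further IkB protein, had means of 51.5 and 55.6 RPKM in naive and CML Tregs and a log2 fold change of 0.14 (SE 0.24, adjusted p = 0.869).

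Ratios between genes within 1 library do not depend on factors that scale whole libraries, so 6 of them were formed as a description without a test, all between members except Birc3 to Birc2. The ratio of Nfkb2 to Nfkb1, the precursor genes of p52 and p50, was 0.548, 0.501 and 0.571 in naive and 0.707, 0.821 and 0.667 in CML Tregs. All 3 CML mice lay above all 3 naive mice, with means of 0.732 ± 0.0801 and 0.540 ± 0.0355 (SD, n = 3 each). Neutrophil marker sums were high in CML replicates 2 and 3 only, erythroid marker sums were above the naive range in all 3 CML libraries, and the part of either in this ratio was not tested. The other 5 ratios overlapped between the groups. Relb to Rel, the subunits of the noncanonical and canonical branches, was 1.27, 0.951 and 1.11 in naive and 1.15, 2.55 and 0.966 in CML Tregs, so that its higher CML mean rested on replicate 2 (log2 difference 0.36, and -0.07 without it). Traf1 to Traf2 was 2.66 to 3.79 in naive and 2.67 to 2.90 in CML Tregs. Birc3 to Birc2 was 0.609 to 0.795 and 0.534 to 0.666, Nfkbia to Nfkb1 was 1.499 to 1.73 and 1.46 to 1.83, and Tnfaip3 to Nfkb1 was 1.38 to 2.02 and 1.15 to 1.81 in the same order.

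**Figure D3:**
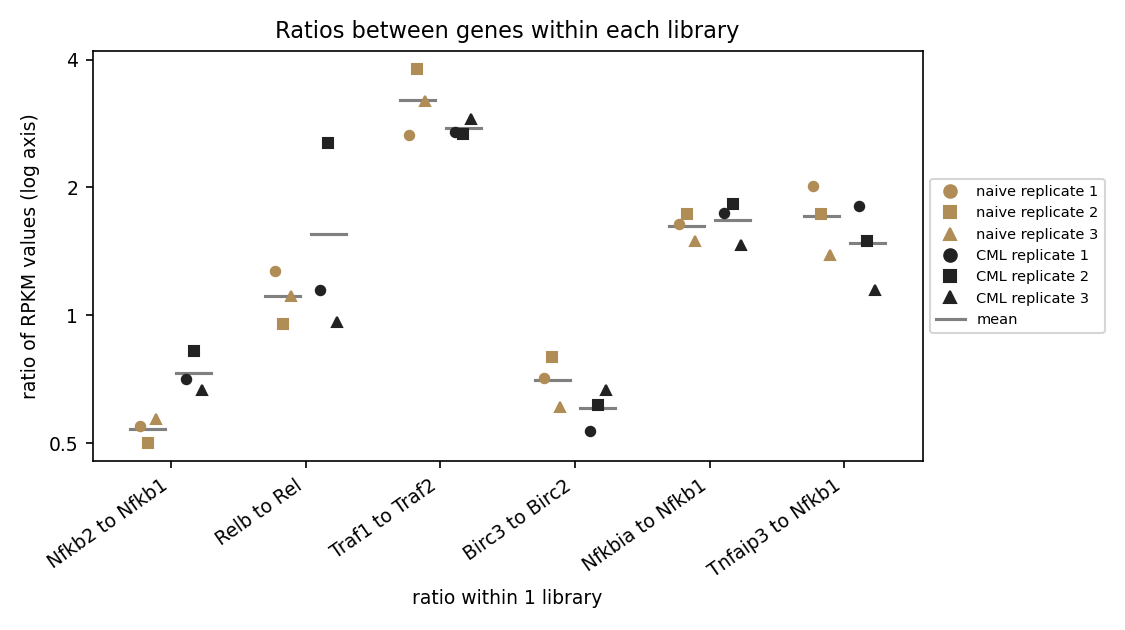
Ratios of the RPKM values of 2 genes within the same library (log axis), for 6 ratios and all 6 libraries, with naive mice in tan, CML mice in black and grey lines at the group means. Only Nfkb2 to Nfkb1 separates the groups (0.501 to 0.571 against 0.667 to 0.821), and the high CML point for Relb to Rel at 2.55 is replicate 2.

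Upstream of the members, 14 TNF receptor genes whose products recruit TRAFs were set beside them, and 10 of these were tested. Tnfrsf9, a costimulatory receptor induced by activation, rose from 28.0, 44.1 and 38.2 RPKM in naive to 182, 135 and 183 RPKM in CML Tregs (log2 fold change 2.16, SE 0.22, adjusted p = 0.0194). It was the only gene of the 79 in all the other pathway lists that passed the adjusted threshold, and it did so under 9 of 19 settings. Tnfrsf1b, the TNF receptor typical of Tregs, had 81.2, 80.4 and 88.2 RPKM in naive and 221, 148 and 231 RPKM in CML Tregs (log2 fold change 1.23, SE 0.20, adjusted p = 0.0793). Tnfrsf4, which encodes OX40, had 205, 176 and 182 RPKM against 465, 284 and 452 RPKM (log2 fold change 1.06, SE 0.21, adjusted p = 0.161). In both the CML libraries lay above all naive libraries without passing the adjusted threshold, which each passed under 5 of 19 settings.

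Tnfrsf8, which encodes CD30, was low, with 0.257, 0.685 and 2.54 RPKM in naive and 12.5, 4.83 and 24.0 RPKM in CML Tregs. Its log2 fold change was 2.68 (SE 0.67, adjusted p = 0.256). The study reported no CD30 protein on any cell population it examined, Tregs included. Of the 10 receptors tested, 5 were higher and 2 lower at an unadjusted p of 0.05 with a 1.5-fold change, beside 2.61% and 5.94% of all tested features. The lower ones, named after their values were seen, were Tnfrsf13b (-2.04) and Tnfrsf25 (-0.78). Tnfrsf13b had 12.1, 7.90 and 9.85 RPKM in naive and 5.95, 1.61 and 0 RPKM in CML Tregs, and its log2 fold change ran from -5.53 to -0.64 over the settings. B and plasma cell marker sums were also lower in CML replicates 1 and 2 than in any naive library, and their part in this value was not tested. Tnfrsf4, Tnfrsf9, Tnfrsf1b, Tnfrsf8 and Tnfrsf18 also stand in a list that the study drew from these same libraries. For its differential genes the study's methods name DESeq2, an FDR below 0.05 and a 1.5-fold change. The count of these receptors here is therefore not independent evidence of a direction. The 4 receptors named by the study summed to 309 ± 6.99 RPKM in naive and 781 ± 181 RPKM in CML Tregs, a ratio of 2.53, beside the ratio of 1.19 for the 3 TRAF genes. Their sum was 1.52 to 1.62 times the TRAF sum in naive libraries and 4.13, 2.73 and 3.24 times in CML replicates 1, 2 and 3, a measure formed after the values were seen.

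Signaling proteins between receptors and subunits were counted at the unadjusted threshold, which 2.61% of all tested features passed higher and 5.94% lower in CML. In the list of 11 other TRAF, cIAP, RIP and adaptor genes, 0 were higher and 1 was lower, namely Ripk2, the kinase of the NOD pathway (log2 fold change -1.14, adjusted p = 0.367). Of 10 kinase genes, 0 were higher and 2 were lower. Ikbke, an IKK-related kinase, had 199, 192 and 163 RPKM in naive and 88.3, 64.8 and 87.4 RPKM in CML Tregs (log2 fold change -1.20, SE 0.18, adjusted p = 0.0712), and passed the adjusted threshold under 5 of 19 settings. Map3k14, which encodes NIK, the kinase that acts on the Nfkb2 product, had 22.1, 28.2 and 24.6 RPKM in naive and 16.7, 11.9 and 17.9 RPKM in CML Tregs (log2 fold change -0.67, SE 0.26, adjusted p = 0.487). The groups of both genes did not overlap.

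In the branch from the T cell receptor, 1 of 4 genes was higher and 1 lower at that threshold. Malt1, the paracaspase that cleaves A20 and other brakes, had means of 81.5 and 143 RPKM in naive and CML Tregs (log2 fold change 0.80, adjusted p = 0.240). Prkcq, the kinase at the head of the branch, had means of 167 and 85.6 RPKM (-0.96, adjusted p = 0.192). Of Rela and 5 other IkB genes, Bcl3 alone was higher, with 19.3, 28.0 and 25.0 RPKM in naive and 58.8, 43.0 and 43.5 RPKM in CML Tregs (log2 fold change 0.98, adjusted p = 0.245). Bcl3 encodes a nuclear IkB protein that binds p50 and p52 dimers, and it stands in the study's own list as well. Of 13 other brakes and ubiquitin editors, N4bp1 alone was higher (1.02, adjusted p = 0.192) and none was lower.

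Counted over the 79 genes of the 7 other lists, 70 were tested and 1 passed the adjusted threshold. At the unadjusted threshold 11 were higher and 6 lower, beside 0 and 0 for the 10 members. The shares over all tested features were 2.61% and 5.94%, from which 0 of 10 does not set the members apart. The median log2 fold change was -0.14 over these genes, -0.04 over the members and -0.18 over all tested features. CML libraries lay above all naive libraries in 11 of the 70 genes (15.7%, beside 4.84% of all tested features) and below in 9 (12.9%, beside 12.2%). Of the 11 higher genes, 5 are receptors that stand in the list the study drew from these same libraries. The lists were also chosen with earlier results known, so the shares are not independent evidence of a direction.

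**Figure D4:**
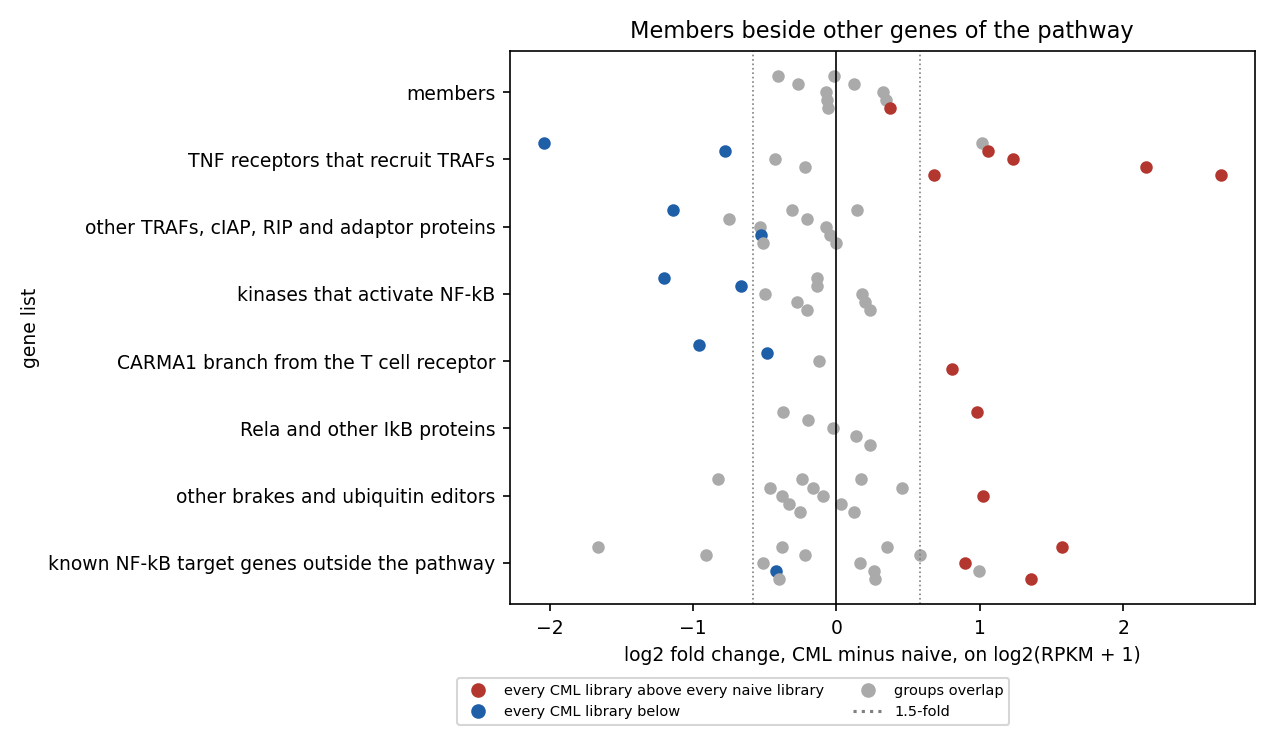
Log2 fold change between CML and naive Tregs for each tested gene of the members and of 7 other pathway lists (1 row per list, small vertical offsets only to separate points), colored by whether all CML libraries lie above, below or among the naive libraries, with dotted lines at 1.5-fold. The members stay within -0.41 and 0.37, while the receptors spread from -2.04 to 2.68.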

How the data were processed

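BM Tregs of 3 CML and 3 naive mice were grouped by their sample titles. The authors made SMART-Seq v4 libraries, sequenced single-end reads on a NextSeq instrument, and used SeqMan NGen and ArrayStar, with mouse builds GRCm38 and mm10 in the submitters' processing notes. RPKM was taken as the unit of the deposited tables, although the sources used here do not name it. This reading rests on values that step with feature length. Relative read numbers were estimated from these steps: without the products defining a step, 30.5% to 59.0% of products lay within 0.05 of a whole number, against 10% by chance. They served only to describe depth. CML replicate 2 had an estimated 119 to 867 reads per member. A deposited value of 0.001 marks no reads and was set to 0. As RPKM are not counts, the count test named in the study's methods was not run.

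Values were transformed to log2(RPKM + 1) and fitted in limma 3.58.1 (R 4.3.3), with a trended prior variance, Benjamini-Hochberg adjustment over 13923 features and no replicate block. Such fold changes understate those of low genes. Calls needed an adjusted p of 0.05 and a 1.5-fold change. Other steps used Python 3.11.15. The fit was tested on simulated data. Most of the changes put into those data missed the thresholds for a call. The members and lists were chosen with earlier results of these data known. Named were all members, from each other list up to 4 genes past an unadjusted p of 0.05 and 1.5-fold, the 4 receptors the study names, Map3k14, Rela, Birc2 and Nfkbie, and the 5 features most like the members. Replicate numbers belong to different mice.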

Additional observations from a re-analysis of the deposited data

How the results depend on the processing

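No member passed the adjusted or the unadjusted threshold under any of the 18 alternative settings, and the smallest adjusted p of a member was 0.312. Of 180 recomputed member differences 157 kept and 23 turned their sign. Dropping the filter, raising the minimum mean, adding a replicate block or dropping the trended variance cannot change a member difference. Signs under those settings were kept by construction, so the count overstates how stable the signs were. The median over all features was -0.18 as deposited, -0.36 with equal 75th percentiles, -0.12 with equal 75th percentiles of tested features, -0.06 with equal sums after removing LOC, small RNA and T cell receptor features, and -0.01 after quantile normalization. The split of features at the unadjusted threshold moved from 363 higher and 827 lower to 211 and 1584, 557 and 639 (equal sums), and 624 and 590 (quantile).

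The 24 features called became 0 with a pseudocount of 0.001, 1 without a filter, 53 after quantile normalization, 46 with equal 75th percentiles, 44 with equal sums, 11 without a trended variance, 45 with library weights and 0 to 17 without single libraries (0 without any naive replicate, 6 without CML replicate 3). A replicate block left 1 called feature. Deviations of same-numbered mice did not correlate (-0.0192 to -0.0016), which cannot exclude shared processing, and the main fit used no block. Of the alternatives added after seeing the data, equal 75th percentiles of tested features gave 53 and CML replicate 1 alone gave 0. The 1 member without overlap became 2 (quantile, Traf2 added), 0 (75th percentile), 4 (equal sums, with Traf1, Traf2 and Nfkbia), 3 (75th percentile of tested features) and 3 (CML replicate 1 alone), both with Traf1 and Traf2, and 1 to 4 without single libraries. These were 4 without CML replicate 1 (Traf3 higher, Rel and Tnfaip3 lower), 3 without CML replicate 2 (Traf1 and Traf2 higher), 2 without naive replicate 1 (Traf2 higher) and 3 without naive replicate 3 (Traf3 higher, Birc3 lower).

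Signs turned with equal 75th percentiles for Traf1 (-0.0822), with equal sums for Birc3 (0.0659), Nfkb1 (0.0818), Relb (0.0737) and Nfkbia (0.125), with library weights for Relb (0.0281) and Nfkbia (0.0513), after quantile normalization for Nfkbia (0.0826), with equal 75th percentiles of tested features for Nfkb1 (0.0137), Relb (0.0070) and Nfkbia (0.0562), and with CML replicate 1 alone for Birc3 (0.0037), Rel (0.0832), Relb (0.138), Nfkbia (0.0485) and Tnfaip3 (0.0435). Without single libraries the ranges that crossed 0 were -0.0265 to 0.258 for Traf1, -0.178 to 0.0068 for Birc3, -0.195 to 0.0837 for Nfkb1, -0.2025 to 0.177 for Relb and -0.0579 to 0.0609 for Nfkbia. The cause was not tested. Of 36 differences of ratios without single libraries, 33 kept their sign and 3 turned, Relb to Rel without CML replicate 2 (-0.0670) and Nfkbia to Nfkb1 without CML replicate 2 (-0.0230) and naive replicate 3 (-0.0139). Depth limits CML replicate 2 most, and no difference rests on more than 3 mice per group.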

Other observations

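Of 21 known NF-kB target genes outside the pathway, 16 were tested. At an unadjusted p of 0.05 with a 1.5-fold change, 3 were higher in CML Tregs and 0 lower. Of all tested features, 2.61% were higher and 5.94% lower at that threshold. Ccl5, a chemokine gene, had 92.9, 104 and 136 RPKM in naive and 302, 227 and 513 RPKM in CML Tregs (log2 fold change 1.57, SE 0.30, adjusted p = 0.141). CD8 T and NK cell markers, which often accompany Ccl5, summed to 65.0, 60.2 and 81.2 RPKM in CML replicates 1, 2 and 3 and to 27.0 to 60.6 RPKM in naive libraries, and their part in the Ccl5 values was not tested. Bcl2a1b and Bcl2a1d, survival genes of the Bcl2 family, had differences of 0.89 (adjusted p = 0.392) and 1.36 (adjusted p = 0.281). They are near-identical copies whose reads can be exchanged in counting, and they stand in the list the study drew from these libraries. The median log2 fold change of the 16 genes was 0.21.

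As a description over the 6 libraries, the 5 features whose values followed the mean log2(RPKM + 1) of the 10 members most closely were Akap1 (r = 0.994), Med7 (0.983), Ercc6l (0.982), Gnas (0.979) and Orc3 (0.974). The points share library and depth, Akap1 was at 0 in CML replicate 2, and 144 tested features had an r of at least 0.9.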
